A study of Mus musculus with 6 samples.

Results

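The Slc26 family encodes membrane proteins that exchange anions such as chloride, bicarbonate, sulfate and oxalate, and 4 of its genes have a row among the 2033 rows of the deposited count table. Members were taken by name, as every row whose reference symbol starts with Slc26a. They are Slc26a1, Slc26a2, Slc26a3 and Slc26a7, each labelled protein-coding and each matched by its Ensembl identifier to GENCODE M21. The other 7 genes of the 11 in the mouse family list (Slc26a4, Slc26a5, Slc26a6, Slc26a8, Slc26a9, Slc26a10 and Slc26a11) were not analysed here, and nothing is known from these data about a change in them.

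PFOA (perfluorooctanoic acid) is a fluorinated surfactant that persists in the environment and in the body. Colon from mice after long-term PFOA exposure and colon from control mice were each sequenced in 3 RNA-seq libraries. The labels mention 6 frozen mice in each group, do not assign mice to libraries, and give no strain, sex, age, dose, duration or colon segment. P-values therefore measure the spread between libraries, and a difference in sampled segment cannot be told apart from an effect of PFOA. In bulk tissue, fewer cells of a type and less RNA per cell cannot be told apart either.

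In the colon, Slc26a3 (also called DRA) sits in the apical membrane of surface epithelial cells, takes up chloride and releases bicarbonate. Together with sodium-proton exchangers it brings about electroneutral salt absorption, and its loss in humans causes congenital chloride diarrhoea. Slc26a2 imports sulfate, which cells activate and attach to proteoglycans, mucins, steroids and foreign compounds, and its loss in humans disturbs cartilage. Slc26a1 exchanges sulfate, oxalate and bicarbonate at basolateral membranes, best known from liver and kidney. Slc26a7 carries chloride in kidney intercalated cells, gastric parietal cells and thyroid follicular cells.

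The table lists only rows that differ between the groups. By mean raw count, no row had a log2 ratio of PFOA to control between -1.08 and 0.92. All 1608 rows with enough counts passed edgeR's quasi-likelihood test (100% called; 50% higher and 50% lower in PFOA), and the CPM ranges of the groups did not overlap in 97.1% of the 2033 rows. Calls and non-overlap for single members restate this selection and are given as descriptions. CPM below are a row's counts relative to the summed counts of the 1608 tested rows in its library, scaled by TMM factors. These sums lay between 1754126 and 2267125 (1771120 to 2269892 over all listed rows) and are not sequencing depths. PFOA replicate 1 stood apart from its group over all rows, with a chi-square per degree of freedom of 241 and 310 against PFOA replicates 2 and 3, which differed from each other by 29.9. Control replicate 1 likewise differed from control replicates 2 and 3 by 118 and 103, against 19.3 between those.

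The promoter window of Slc26a3 is shown because it was the member with the most counts in control colon. RefSeq promoter windows (GRCm38.p6) were examined for Slc26a1 and Slc26a3 only, and windows of the other members were not examined. The stretch below is the 248 bases at chr12:31437969-31438216, on the plus strand, and it ends just before an annotated exon that begins 2 bases ahead of the RefSeq start at 31438219. That start lies 47348 bases after the start of the gene in GENCODE M21, so the stretch is inside the annotated gene. Capitals mark the matches to short motifs that a script found, 2 to part of the HNF1 motif and then 1 to a TATA box:
Slc26a3: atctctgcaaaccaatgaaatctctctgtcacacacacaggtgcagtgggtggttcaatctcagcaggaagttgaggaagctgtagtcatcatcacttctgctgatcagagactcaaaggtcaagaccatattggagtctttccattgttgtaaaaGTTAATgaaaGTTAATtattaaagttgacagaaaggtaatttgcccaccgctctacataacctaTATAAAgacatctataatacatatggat

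The TATAAA match begins 30 bases before the RefSeq start, and 13.6% of the 32851 promoter windows of 300 bases hold these letters on either strand. GTTAAT is part of the binding motif of HNF1, a transcription factor of liver, kidney and gut epithelium. It begins 94 and 84 bases before the start. Any match to it, single or repeated, occurs in 7.10% of all windows, and repeated matches were not counted apart. The letters were searched after the window had been read. The CDX letters TTTATG, found in 11.9% of all windows, had no match in the Slc26a3 window on either strand. The same held for the SP1 letters GGGCGG, found in 35.7% of all windows. The printed stretch has a GC content of 38.3%, against 53.8% over all windows. A match is a description of letters and no evidence of binding.

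Slc26a3 fell in PFOA. The row lies on chromosome 12 at 31390871 to 31476294 (mm10, plus strand) and covers the 22 annotated exon blocks of the gene. It had 44864, 60351 and 56990 counts in control replicates 1, 2 and 3 and 18783, 6770 and 7256 counts in PFOA replicates 1, 2 and 3. The groups did not overlap, and PFOA replicate 1 kept more Slc26a3 than the other PFOA libraries.

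The mean level of Slc26a3 was 25638 ± 3670 CPM in control and 5547 ± 3917 CPM in PFOA (SD, n = 3 per group). By the ratio of summed counts over scaled totals, it was 4.80-fold lower. The log2 fold change was -2.21 ± 0.50 (SE; edgeR adjusted p = 0.00398). Without PFOA replicate 1 it was -3.00 (edgeR adjusted p = 1.17e-04). Among all listed rows of a library, Slc26a3 ranked between place 3 and place 5 by count in control, and between 18 and 47 in PFOA. It took between 2.53% and 3.02% of the listed counts in control and between 0.317% and 0.861% in PFOA.

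Slc26a2 also fell, by less. Its row lies on chromosome 18 at 61192919 to 61211612 (minus strand). The control libraries had 31601, 44193 and 46068 counts and the PFOA libraries 24214, 14669 and 13198, in the order of the replicates. The groups did not overlap, but PFOA replicate 1 (12979 CPM) came close to control replicate 1 (15406 CPM).

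The mean level of Slc26a2 was 19226 ± 3317 CPM in control and 8680 ± 3741 CPM in PFOA (SD, n = 3 per group), and by summed counts over scaled totals it was 2.27-fold lower. The log2 fold change was -1.15 ± 0.36 (SE; edgeR adjusted p = 0.0148). By size of change it stood at place 1406 of the 1608 tested rows, and its log2 ratio of mean counts, -1.23, lay close to the -1.08 at which listed rows begin. The edgeR call ended without PFOA replicate 2 (log2 fold change -0.95, adjusted p = 0.0657) and without PFOA replicate 3 (-0.93, adjusted p = 0.0533).

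Slc26a1 rose from a near-empty level. Its row lies on chromosome 5 at 108669878 to 108675569 (minus strand). It gave 7, 0 and 2 counts in the controls and 321, 19 and 22 after PFOA. All 3 PFOA libraries lay above all control libraries, but most of the PFOA counts came from replicate 1. Summed over the groups, Slc26a1 was 41.5-fold higher, with a 95% Clopper-Pearson interval from 21.6 to 91.4 that covers counting error only.

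The fitted log2 fold change of Slc26a1 was 5.42 ± 1.52 (SE, n = 3 per group; adjusted p = 0.00963 by edgeR). The value was 2.67 without PFOA replicate 1 (edgeR adjusted p = 0.0135), 6.77 without control replicate 1 and 4.63 with limma-voom. The gene lies inside Idua, the lysosomal iduronidase gene on the opposite strand, and 141 bases of their annotated exons coincide. The sources used here do not give a strand setting for the counting, so reads of Idua could be counted for Slc26a1.

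Slc26a7 was seen in control colon only, at very few counts. Its row lies on chromosome 4 at 14502430 to 14621805 (minus strand). It had 7, 7 and 14 counts in control and 0 in each PFOA library. Set at a floor of 3 counts over the PFOA group, Slc26a7 was 9.05-fold lower. The 95% Clopper-Pearson interval of the ratio of PFOA to control ran from 0 to 0.145 and covers counting error only. Without PFOA replicate 2 the log2 value at the floor moved from -3.18 to -2.52, and without PFOA replicate 3 to -2.55. The row was below the filter on low counts and so was not among the 1608 tested rows. When no filter was set, edgeR gave an adjusted p of 0.00287.

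**Figure D1:**
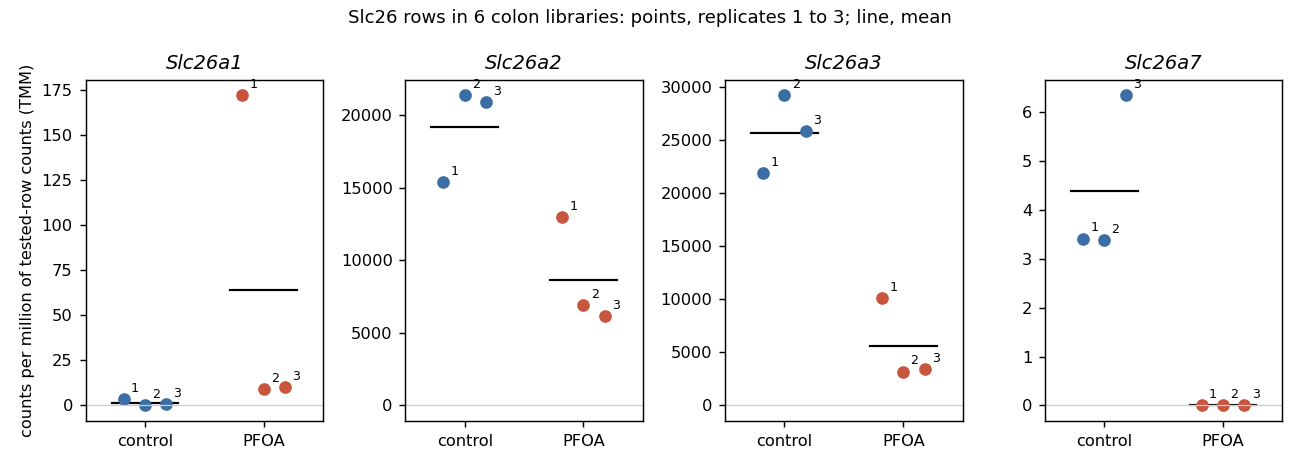
CPM relative to the counts of the tested rows (TMM-scaled, linear axes that differ between panels) of the 4 Slc26 rows in each library; points are replicates 1 to 3, horizontal lines are group means. Slc26a3 and Slc26a2 are lower in all 3 PFOA libraries with PFOA replicate 1 the highest of them, Slc26a1 is high mainly in PFOA replicate 1 (321 counts), and Slc26a7 has no PFOA count.

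By level, Slc26a3 and Slc26a2 stood far above Slc26a1 and Slc26a7 in every library. Per kilobase of the row length in the deposited table, Slc26a3 had between 2970 and 3995 counts and Slc26a2 between 2307 and 3363 in control. In PFOA, the counts per kilobase were 448 to 1243 for Slc26a3 and 964 to 1768 for Slc26a2. Slc26a1 and Slc26a7 had at most 1.73 and 2.58 counts per kilobase in any control library, ranges that overlap. Annotated exons give Slc26a3 6369 bases against a deposited row length of 15107. In every control library, Slc26a3 stood above Slc26a2 by either length. In PFOA its place relative to Slc26a2 depended on the length used. By deposited length it stood below Slc26a2 in every PFOA library. Per kilobase of annotated exon, it stood above in PFOA replicates 1 and 3 and below in PFOA replicate 2 (1063 against 1186).

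The ratio of Slc26a3 to Slc26a2 counts within a library does not depend on the scaling between libraries. It was 1.42, 1.37 and 1.24 in control replicates 1, 2 and 3 and 0.776, 0.462 and 0.550 in PFOA replicates 1, 2 and 3. The groups did not overlap: Slc26a3 gave more counts than Slc26a2 in every control library and fewer in every PFOA library. The mean ratio was 1.34 ± 0.094 in control and 0.596 ± 0.162 in PFOA (SD, n = 3 per group), 2.25-fold lower. Per kilobase of annotated exon, the means were 2.60 and 1.16, so that on this scale Slc26a3 stayed above Slc26a2 on average in PFOA. Since both rows had been selected for a difference, the ratio is given with no test.

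**Figure D2:**
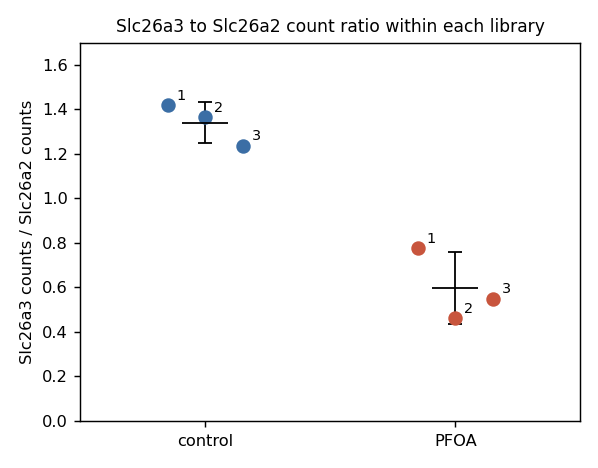
Slc26a3 counts divided by Slc26a2 counts within each library (unitless, axis from 0); points are replicates 1 to 3, bars are the mean and SD of each group. Control libraries lie between 1.24 and 1.42 and PFOA libraries between 0.462 and 0.776.

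Exact sequence shared between members, over which their reads could not be told apart, was short. Its longest run between annotated transcripts of Slc26a2 and Slc26a3 was 32 bases, and for the other 5 pairs of members it was between 12 and 16.

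Rows beside Slc26a3 were low in PFOA as well, where 50% of all tested rows were lower. MSTRG.4795, an assembled locus labelled a long non-coding RNA, begins 64 bases after the end of the Slc26a3 row on the same strand. It gave 952, 1550 and 1109 counts in the controls and 210, 92 and 79 after PFOA, 9.19-fold lower (log2 fold change -3.16, SE 0.48, 3 libraries per group; adjusted p = 8.73e-04 by edgeR; -3.87 without PFOA replicate 1). As in Slc26a3, PFOA replicate 1 had the most counts of the PFOA libraries. Whether this row holds the end of Slc26a3 transcripts was not tested.

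Inside the Slc26a3 gene, the processed pseudogene Gm9359 had 3, 0 and 10 counts in control and 0 in PFOA, so its groups overlapped. It shares 0 annotated exon bases with Slc26a3, but the deposited Slc26a3 row is longer than the annotated exons. Whether the few Gm9359 reads come from Slc26a3 transcripts was not tested. Gm29542, labelled antisense, lies 10664 bases downstream and had 10, 14 and 4 counts in control and 0 in PFOA. Both were too low to be tested.

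Beside Slc26a1, the listed rows were higher in PFOA, as were 50% of all tested rows, and genes without a row were not analysed. MSTRG.17669, an assembled non-coding locus 8316 bases away on the same strand, gave 10, 7 and 13 counts in the controls and 135, 63 and 68 after PFOA (log2 fold change 3.22, SE 0.49, 3 libraries per group; adjusted p = 9.06e-04 by edgeR). Fgfrl1, a receptor-like protein that binds fibroblast growth factors, lies 16813 bases away and was 2.69-fold higher. MSTRG.17669 spans 108683885 to 108694097, which overlaps Fgfrl1 (from 108692382) and Idua (to 108684557), both on the opposite strand. As the strand setting is not known, its counts could include reads of these genes. No other listed row lay within 50000 bases of Slc26a1 or Slc26a3, and none within that distance of Slc26a2 or Slc26a7.

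Genes that work beside Slc26 exchangers were taken from 3 lists, and list members without a row were not analysed here. The list of sodium-proton exchange and apical anion transport has 34 genes, of which 7 had a row and 5 were tested, with 1 higher and 4 lower in PFOA. Their median log2 fold change was -2.76, beside -1.15 over the 3 tested Slc26 rows. It was -1.80 over all tested rows that were lower, 50% of the total, and 1.71 over those that were higher. The median over all tested rows, -0.03, falls inside the range in which no row was listed. Ano1, a calcium-activated chloride channel, gave 30662, 21967 and 26918 counts in the controls and 2289, 4740 and 4550 after PFOA, 6.66-fold lower. Here PFOA replicate 1 was the lowest library, whereas it was the highest PFOA library for Slc26a3.

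Best2, a bestrophin channel of goblet cells that passes bicarbonate, was 7.97-fold lower (edgeR adjusted p = 3.01e-04). Kcne3, a potassium channel subunit that supports chloride secretion, was 2.28-fold lower. Atp12a, the non-gastric proton-potassium pump, was 118-fold lower. Prkg2, a kinase activated by cyclic GMP, was the higher gene, with 15, 96 and 38 counts in the controls against 1069, 3356 and 3044 after PFOA (log2 fold change 5.65, SE 0.75, 3 libraries per group; adjusted p = 5.74e-04 by edgeR; 6.53 without control replicate 2). Pdzk1, an apical scaffold protein, had 6, 7 and 4 counts in control and 0 in PFOA. Slc4a1, the anion exchanger of red blood cells, had 1, 5 and 6 counts in control and 0 in PFOA.

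Carbonic anhydrases, which supply bicarbonate and protons to exchangers, had a row for 5 of 16 genes. Of these, 4 were higher and 1 was lower in PFOA (median log2 fold change 3.86), where 50% of all tested rows were higher. Car4, which is anchored to the apical membrane, was the lower row, with 7983, 16679 and 15340 counts in the controls against 3801, 6129 and 5301 after PFOA (2.55-fold lower; edgeR adjusted p = 0.00489). The cytosolic Car1 gave 5727, 17063 and 10999 counts in the controls and 125029, 39638 and 50026 after PFOA, 6.55-fold higher. Its log2 value was 2.77, or 1.94 without PFOA replicate 1, the library in which it was highest.

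Car12, a membrane enzyme, gave 276, 549 and 317 counts in the controls and 8197, 3859 and 3582 after PFOA (log2 fold change 3.86, SE 0.50, 3 libraries per group; adjusted p = 5.04e-04 by edgeR; 3.23 without PFOA replicate 1). Set against Slc26a3 in the same library, Car12 counts were between 0.556% and 0.910% of Slc26a3 counts in control and between 43.6% and 57.0% in PFOA. Car4 counts were between 17.8% and 27.6% of Slc26a3 counts in control and 20.2%, 90.5% and 73.1% in PFOA replicates 1, 2 and 3, so that the groups overlapped. Car8, a family member without enzyme activity, was 23.1-fold higher. Car3, an enzyme of muscle and fat, gave 59, 22 and 8 counts in the controls and 417, 7 and 1099 after PFOA, so its groups overlapped.

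The call of Car3 (edgeR adjusted p = 0.0219, log2 fold change 4.10) ended when control replicate 2, control replicate 3 or PFOA replicate 3 was left out (edgeR adjusted p = 0.0647, 0.0697 and 0.0623; log2 fold change 3.01 without PFOA replicate 3). Leaving out control replicate 1 gave a log2 fold change of 4.96, and leaving out PFOA replicate 2 gave 4.73. It ended too with limma-voom (log2 fold change 2.80, adjusted p = 0.204) and in the fit with a replicate block (2.99, edgeR adjusted p = 0.144). The 4 adipocyte markers with a row summed to 378, 69.2 and 520 CPM in PFOA replicates 1, 2 and 3 and to between 9.52 and 37.7 CPM in control, high in the same PFOA libraries as Car3; their part in the result was not tested.

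Of the 52 sulfate activation and sulfation genes, 6 had a row and 5 were tested. Of these, 4 were higher, opposite to Slc26a2, and 1 was lower in PFOA (median log2 fold change 1.69). Over all tested rows, 50% were higher, and the count describes the listed rows only. Papss2, which makes the activated sulfate donor, gave 4443, 5495 and 5034 counts in the controls and 23628, 10115 and 11870 after PFOA, 3.14-fold higher (log2 fold change 1.69, SE 0.40, 3 libraries per group; adjusted p = 0.00478 by edgeR; 1.09 without PFOA replicate 1). Papss2 counts were between 10.9% and 14.1% of Slc26a2 counts in control libraries and between 69.0% and 97.6% in PFOA libraries.

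Slc13a1, a sodium-coupled sulfate transporter of apical membranes, gave 3, 135 and 65 counts in the controls and 354, 2404 and 2451 after PFOA. The 2 groups did not overlap, and PFOA replicate 1, highest for Papss2, was the lowest PFOA library here. The log2 fold change of Slc13a1 was 4.68 ± 1.15 (SE, n = 3 per group; edgeR adjusted p = 0.00576), with 3.99 without control replicate 1, 5.66 without control replicate 2 and 5.38 with limma-voom. Slc13a1 counts were at most 0.306% of Slc26a2 counts in control and between 1.46% and 18.6% in PFOA.

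The sulfotransferases Sult1d1 and Sult1a1 were 3.64-fold and 1.97-fold higher; for Sult1d1 the log2 fold change was 1.91, and 1.29 when PFOA replicate 1 was left out. Hs3st1, which adds sulfate to heparan sulfate, was 2.37-fold lower. Sult1c1 had 0 counts in control and 1, 1 and 6 in PFOA, too few to be tested.

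**Figure D3:**
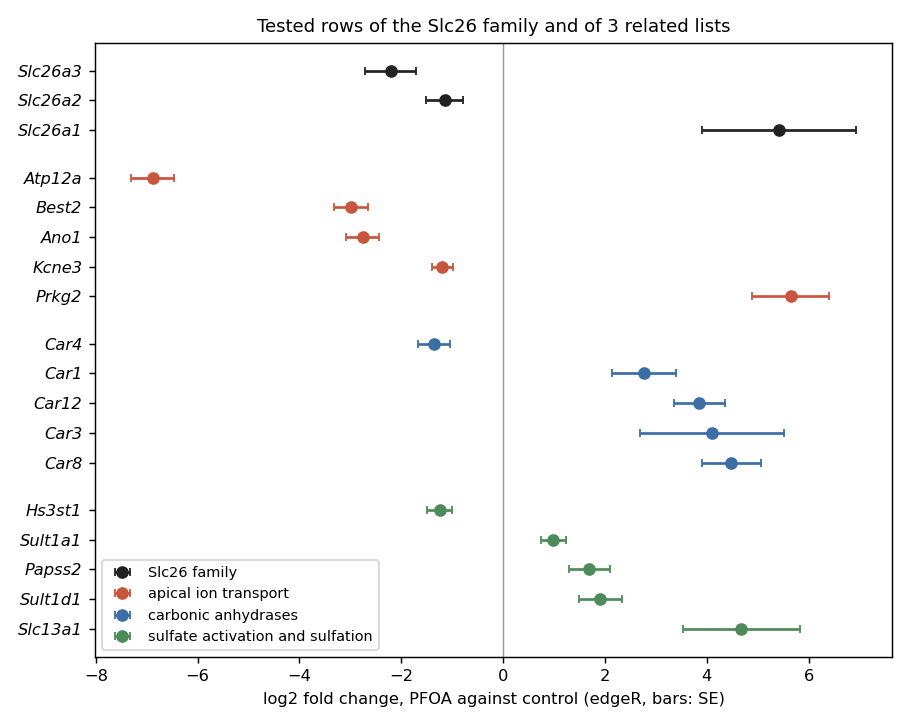
Log2 fold change of PFOA against control (edgeR, bars are SE, 3 libraries per group) of each tested row of the Slc26 family, of apical ion transport, of carbonic anhydrases and of sulfate activation and sulfation. Slc26a2 (-1.15) and Slc26a3 (-2.21) lie left of 0 beside Ano1, Best2, Kcne3, Atp12a, Car4 and Hs3st1, while Slc26a1 (5.42) and the other rows lie right of 0.

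Rows with the most similar profile were found by the root mean square difference of row-centred log2 CPM over the 6 libraries, among 955 other tested protein-coding rows with a descriptive symbol. By the largest absolute difference instead, the first 2 neighbours of Slc26a3, Slc26a2 and Slc26a1 were found again and the third changed, from Prdx6 to Cyp2a12 for Slc26a3, from P2ry4 to Tff3 for Slc26a2 and from Ms4a18 to Acaa1b for Slc26a1. Nearest to Slc26a3 were Rbp2, a retinol-binding protein (difference 0.181), Rdh16f2, a retinol dehydrogenase family member (0.248), and Prdx6, a peroxiredoxin (0.277). Rbp2 gave 426, 515 and 487 counts in the controls and 144, 69 and 79 after PFOA, with PFOA replicate 1 the highest of its group as in Slc26a3.

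Prdx6 lost its edgeR call without control replicate 2 (adjusted p = 0.0719), PFOA replicate 2 (adjusted p = 0.0916) or PFOA replicate 3 (adjusted p = 0.078), while its log2 fold change went from -1.71 to -2.94 when PFOA replicate 1 was left out. Rdh16f2, which had at most 19 counts in a library, went from -2.71 to -4.58 when PFOA replicate 1 was left out and to -2.07 in the absence of PFOA replicate 2.

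Nearest to Slc26a2 were Has2, a hyaluronan synthase (0.157), Ppm1j, a protein phosphatase (0.175), and P2ry4, a nucleotide receptor (0.199). Has2 gave 35, 39 and 44 counts in the controls and 25, 13 and 15 after PFOA. Like Slc26a2, Has2 and Ppm1j lost their edgeR call without PFOA replicate 2 (adjusted p = 0.1 and 0.115) and without PFOA replicate 3 (adjusted p = 0.0852 and 0.0868). Both also lost it without control replicate 2 (adjusted p = 0.0579 and 0.0719), and Has2 without control replicate 3 (adjusted p = 0.0501). For Ppm1j the log2 fold change went from -1.10 to -1.76 when PFOA replicate 1 was left out.

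Nearest to Slc26a1 was Mal, a membrane protein of apical sorting, with 102, 54 and 72 counts in the controls against 3819, 420 and 369 after PFOA (difference 0.444). Saa3, an acute-phase protein (0.867), and Ms4a18, a membrane-spanning protein (0.943), followed at a larger distance. In all 3, as in Slc26a1, PFOA replicate 1 was the highest library. Leaving it out changed the log2 fold change from 4.48 to 2.32 for Mal, from 5.46 to 4.08 for Saa3 and from 4.93 to 4.13 for Ms4a18. That of Mal was 3.54 both with limma-voom and in the fit with a replicate block, and that of Ms4a18 was 6.34 without control replicate 1 and 4.22 without control replicate 3.

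Of all tested rows, 50% were higher and 50% lower in PFOA. Of 22 absorptive colonocyte markers, 8 had a row, Slc26a3 among them, and 4 were higher and 4 lower in PFOA. Their summed level was between 39500 and 68480 CPM in control and between 57580 and 149200 CPM in PFOA, where PFOA replicate 1 was the highest library. For goblet cells, 5 marker rows were higher and 5 lower, and Muc2 alone gave 3 of the higher ones. Counted by gene, 3 goblet markers were higher and 5 lower. Among them, the higher row named Galnt12 is labelled a processed pseudogene, and the lower Fcgbp row also carries the symbol 9530053A07Rik. Colonocyte and goblet markers were present in every library, with none of their listed rows at 0 in a group.

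Of 17 markers of small intestinal enterocytes, 7 had a row, and 6 were higher and 1 lower in PFOA. Their summed level was between 826 and 1860 CPM in control and between 5927 and 11710 CPM in PFOA. The 2 smooth muscle rows were lower, at 4292 to 9446 CPM summed in control and 2218 to 3229 CPM in PFOA, and of the 4 fibroblast rows 1 was higher and 3 were lower. The part of these cell types in the Slc26 results was not tested.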

How the data were processed

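The authors deposited raw read counts per gene row for 6 mouse colon libraries, prepared, per the labels' protocols, with the SMARTER mRNA-Seq kit. HISAT2, HTSeq and mm10 are named in the submitters' processing notes. Not given in the sources used here are versions, the strand setting, the treatment of multi-mapping reads, the assembler of the MSTRG loci and the rule of row selection. Row length and position are those of the deposited table. Columns were matched by sample description.

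The main test was that of edgeR 4.0.16 in R 4.3.3, with filterByExpr, TMM, glmQLFit and glmQLFTest, PFOA against control, two-sided, no covariates, Benjamini-Hochberg over 1608 rows, threshold 0.05. SE is the absolute log2 fold change divided by the square root of F. CPM use the totals of the tested rows. Folds are ratios of summed counts over TMM-scaled totals, with a floor of 3 counts over a group at 0. Log2 CPM for profiles used a prior count of 2. On simulated counts for 1608 rows, 18 of 100 rows changed 2-fold, 93 of 100 changed 4-fold and 3 of 1408 unchanged rows were called. Most simulated rows were unchanged, whereas the listed rows were selected for a difference. These rates therefore do not carry over to the calls on the listed rows. Replicates differed by a chi-square of at least 19.3 per degree of freedom, so none agreed within sampling noise.

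Named genes were all Slc26 rows, all rows of 3 lists, the 3 nearest rows by profile, and overlapping or neighbouring rows; neighbours within 50000 bases were added after values were seen. Members and lists were chosen with earlier results of these data known. Alternatives were other scalings, DESeq2 1.42.0, limma-voom (limma 3.58.1), other filters, a replicate block, other lengths, another measure of profile likeness and each library left out.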

Additional observations from a re-analysis of the deposited data

How the results depend on the processing

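Slc26a1, Slc26a2 and Slc26a3 kept their direction in all 38 alternative values and their call in 36. The exceptions were Slc26a2 without PFOA replicates 2 and 3. Nearly all tested rows also kept a call in other settings, such as 778 higher and 804 lower with library totals alone. Counts of kept calls, here and for the other named rows below, therefore restate the selection of rows. DESeq2 gave no p-value for Slc26a1 (log2 fold change 5.43) or Mal. Over the 6 fits that each left out a library, the log2 fold change lay between 2.67 and 6.77 for Slc26a1. It lay between -1.59 and -0.93 for Slc26a2 and between -3.00 and -1.88 for Slc26a3. The log2 value of Slc26a7 at the floor lay between -3.46 and -2.52, where fewer counts stand against the same floor. The mean count ratio of Slc26a3 to Slc26a2 lay between 1.30 and 1.39 in control and between 0.506 and 0.663 in PFOA. Per kilobase of deposited length it was 1.22 and 0.540; per kilobase of annotated exon, chosen after seeing the data, it was 2.60 and 1.16. Library totals alone moved the median of all tested rows by -0.20 (log2); Slc26a2 was then at -1.37 and Slc26a3 at -2.46. Same-numbered libraries did not pair (correlations of deviations 0.115, -0.031 and 0.102, and control replicate 2 correlated best with PFOA replicate 3); in the fit with a replicate block, the log2 fold changes were 5.16, -1.22 and -2.44 for Slc26a1, Slc26a2 and Slc26a3, and 780 rows were higher and 799 lower. Of 350 alternative values of the other 27 tested rows named, 335 kept their call, 15 lost it and 0 reversed. Without a filter, 1033 rows were higher and 998 lower. Depth limits Slc26a7 and the control level of Slc26a1, which rest on 28 and 9 counts.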
